A study of Mus musculus with 2 samples.

Results

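The INK4 inhibitors and the Arf locus are 4 mouse genes: Cdkn2a, Cdkn2b, Cdkn2c and Cdkn2d. They were found by symbol among the 27998 genes counted in both libraries, and all 4 were present in each. INK4 proteins bind the kinases Cdk4 and Cdk6 and keep D-type cyclins from activating them, so that the pocket protein Rb stays active and holds E2F factors in check. Cdkn2a encodes p16Ink4a and, from a separate first exon read in another frame, p19Arf, which binds Mdm2 and so stabilises p53. In the mouse retina p19Ink4d, the product of Cdkn2d, is known from mutants to act with the inhibitor p27 in keeping new neurons out of the cell cycle.

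Cells came from peripheral retina of mice on postnatal day 8, with 1 droplet-based 3′ library for each of 2 genotypes. The DKO-Skp2+/- library carried alphaCre, Rbf/f, p107-/- and skp2+/-, and the submitters call this genotype tumor-resistant. The DKO library carried alphaCre, Rbf/f and p107-/-, which they call tumor-prone. Both therefore share the loss of p107 in every cell and the loss of Rb in the cells that alphaCre reaches, and neither library is a wild type. AlphaCre is driven by an enhancer of Pax6 active in progenitors of the peripheral retina, so microglia and vessel cells in the dissected tissue keep Rb. How many animals went into each library is not given in the sources used here. A unique molecular identifier (UMI) marks each captured transcript, and levels are given as CPM, the UMIs of a gene scaled to the total UMIs of the cells named.

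The DKO-Skp2+/- library kept 4978 cells with a median of 3810.5 UMIs, and the DKO library kept 3515 cells with a median of 4874 UMIs. The libraries shared 30 barcodes, 29 of them among kept cells. Over all kept cells Skp2 itself stood at 56.8 CPM in DKO-Skp2+/- and 80.8 CPM in DKO. The ratio was 0.703 (95% counting interval 0.655 to 0.754), in the direction of the labels. Each cell was thinned at random to 1500 UMIs and called dividing if at least 3 of them came from 26 core proliferation genes, and quiet otherwise. Dividing cells made up 42.5% of DKO-Skp2+/- cells and 54.5% of DKO cells, and 736 and 438 cells lay at 2 or 3 such UMIs, next to the limit. Over all kept cells, 4 of the 26 core genes were above 0 in log2 difference between DKO-Skp2+/- and DKO, against 55.8% of all genes. The part of the share of dividing cells in the Skp2 ratio was not tested. With 1 library per genotype no difference has a replicate check, so no test was made and all intervals cover counting error only.

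Cdkn2a spans chr4:89274471-89294653 and Cdkn2b chr4:89306299-89311039 on the minus strand (GRCm38), with 11646 bases between them. Cdkn2c lies farther along the same chromosome at chr4:109660876-109667189, and Cdkn2d at chr9:21288410-21291407, both also on the minus strand. No annotated gene overlaps any of the 4. The annotation gives Cdkn2a 2 starts, and their transcripts share exon 2 at chr4:89276645-89276985 and overlap in exon 3. Libraries of 3′ ends count that shared end, so p16Ink4a and p19Arf transcripts could not be told apart, and every Cdkn2a value is their sum.

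The windows from 250 bases before to 50 bases after the starts of Cdkn2a, Cdkn2c and Cdkn2d are shown because these members were higher in dividing cells. The Arf start uses chr4:89294570-89294869 and the Ink4a start chr4:89282143-89282442, while the windows of Cdkn2c and Cdkn2d are chr4:109666707-109667006 and chr9:21291160-21291459. Sequences are from RefSeq (GRCm38.p6), on the minus strand, 5′ to 3′, and capitals mark a motif of the E2F factors, which pocket proteins restrain.
Cdkn2a, Arf start: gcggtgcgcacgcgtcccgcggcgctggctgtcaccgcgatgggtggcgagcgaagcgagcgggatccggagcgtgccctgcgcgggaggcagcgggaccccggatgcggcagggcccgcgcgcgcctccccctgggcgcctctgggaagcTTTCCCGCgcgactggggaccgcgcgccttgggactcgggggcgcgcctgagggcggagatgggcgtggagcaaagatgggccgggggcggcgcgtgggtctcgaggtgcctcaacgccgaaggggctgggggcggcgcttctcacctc
Cdkn2a, Ink4a start: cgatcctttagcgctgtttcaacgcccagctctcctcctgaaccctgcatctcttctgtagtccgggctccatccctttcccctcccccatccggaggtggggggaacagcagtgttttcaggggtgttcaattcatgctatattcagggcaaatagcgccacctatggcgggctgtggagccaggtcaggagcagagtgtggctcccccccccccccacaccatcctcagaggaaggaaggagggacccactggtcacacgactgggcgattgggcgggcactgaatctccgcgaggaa
Cdkn2c: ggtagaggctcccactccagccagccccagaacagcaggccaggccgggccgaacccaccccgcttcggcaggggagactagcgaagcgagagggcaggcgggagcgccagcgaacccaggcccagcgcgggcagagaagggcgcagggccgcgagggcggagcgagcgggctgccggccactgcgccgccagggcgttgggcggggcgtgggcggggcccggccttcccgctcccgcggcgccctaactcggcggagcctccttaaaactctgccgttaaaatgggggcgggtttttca
Cdkn2d: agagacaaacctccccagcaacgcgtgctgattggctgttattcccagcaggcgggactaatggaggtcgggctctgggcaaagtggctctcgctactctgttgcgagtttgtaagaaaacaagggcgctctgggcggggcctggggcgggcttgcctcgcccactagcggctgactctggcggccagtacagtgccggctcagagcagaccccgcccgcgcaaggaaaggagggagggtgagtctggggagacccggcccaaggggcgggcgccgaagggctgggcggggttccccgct
The letters searched, on both strands, were TTTCCCGC, TTTGGCGC, TTTCGCGC and TTTGCCGC. TTTCCCGC stood in the Arf window, 99 bases before the start, and none of the 4 stood in the windows of the Ink4a start, Cdkn2b, Cdkn2c or Cdkn2d. Of 32851 mouse promoter windows of the same length, 2.26% held at least 1 of the 4. The GC box GGGCGG, bound by Sp1 family factors, occurred 3 times in the Arf window, 1 time in that of Ink4a, 4 times in that of Cdkn2c and 5 times in that of Cdkn2d, and in 35.7% of all windows. RefSeq gives Cdkn2c another start, whose window, chr4:109665323-109665622, is not printed and held 0 GC boxes and none of the E2F letters. A match is a description of these letters and not of binding.

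Taken over all kept cells, Cdkn2a, Cdkn2c and Cdkn2d were higher in dividing than in quiet cells of both libraries. Cell types differed in their share of dividing cells, and the part of that make-up in the ratios that follow was not tested. Within single clusters or classes, given further on, some ratios were much smaller and some larger. Cdkn2c, which encodes p18Ink4c, reached 355 CPM in dividing and 111 CPM in quiet cells of the DKO-Skp2+/- library, a ratio of 3.20 (3.01 to 3.403). In the DKO library the levels were 303 and 87.7 CPM, a ratio of 3.45 (3.20 to 3.72). Cdkn2d, which encodes p19Ink4d, stood at 243 CPM in dividing and 56.9 CPM in quiet DKO-Skp2+/- cells, a ratio of 4.28 (3.94 to 4.65). Its levels in DKO cells were 207 and 65.0 CPM, a ratio of 3.19 (2.92 to 3.48).

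Cdkn2a was counted at lower levels, 38.2 CPM in dividing and 14.5 CPM in quiet DKO-Skp2+/- cells, a ratio of 2.63 (2.21 to 3.15). In DKO cells it stood at 25.9 and 10.3 CPM, a ratio of 2.52 (2.02 to 3.19). Cdkn2b, which encodes p15Ink4b, was close to the limit of detection, with 38 UMIs in all kept DKO-Skp2+/- cells and 61 in all kept DKO cells. Its dividing and quiet levels were 2.49 and 0.783 CPM in DKO-Skp2+/- cells, against 2.68 and 2.49 CPM in DKO cells, and only the first pair had a ratio whose interval lay above 1, at 3.18 (1.4998 to 7.34) against 1.08 (0.629 to 1.89). Thinned to 1500 UMIs per cell, the ratio in DKO-Skp2+/- was 1.13. Among genes with at least 50 UMIs, 10.4% in DKO-Skp2+/- and 11.4% in DKO were more than 1.5-fold higher in dividing cells. Cdkn2a, Cdkn2c and Cdkn2d exceeded that fold in both libraries. No member was over 1.5-fold lower in dividing cells, as 21.5% of genes in DKO-Skp2+/- and 21.9% in DKO were. Cdkn2b did not in DKO, and it fell under the UMI minimum in DKO-Skp2+/-.

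**Figure D1:**
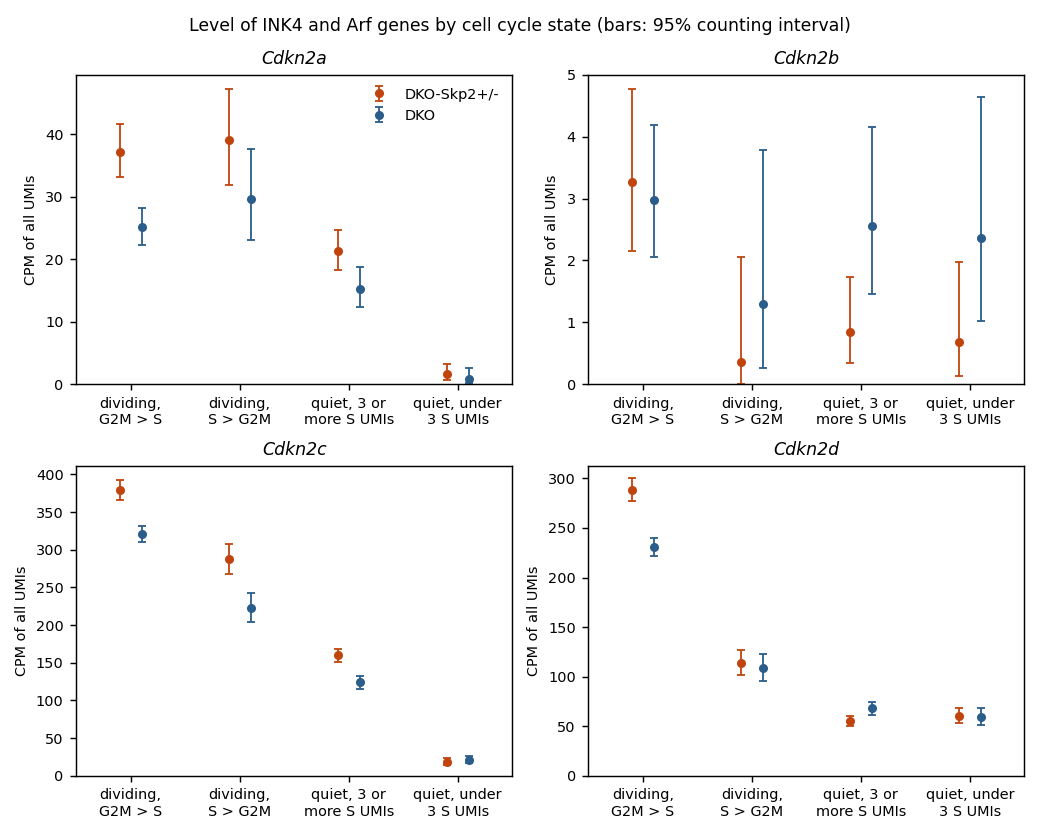
CPM of each member (y axis) in 4 cell cycle states of each library (x axis), with points for the UMI sums and bars for 95% Poisson intervals. Cdkn2a and Cdkn2c are near their lowest in quiet cells with fewer than 3 S phase UMIs, while Cdkn2d is about level across both kinds of quiet cell and highest in cells richer in G2M UMIs.

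The members differed in which part of the cycle they followed. Dividing cells were split by whether UMIs of 38 G2M genes or of 40 S phase genes were more numerous, and quiet cells into those with 3 or more S phase UMIs and those with fewer, called here with and without S phase UMIs, a split chosen after its values were seen. Cdkn2a had close levels in cells richer in G2M UMIs and in cells richer in S phase UMIs, with 37.2 and 39.1 CPM in DKO-Skp2+/- and 25.2 and 29.7 CPM in DKO. The ratios, 0.953 (0.762 to 1.20) and 0.846 (0.648 to 1.12), both had intervals that held 1. Quiet cells with S phase UMIs still showed Cdkn2a at 21.3 CPM in DKO-Skp2+/- and 15.3 CPM in DKO. In quiet cells without them it was almost absent, with 7 UMIs (1.58 CPM) in 859 DKO-Skp2+/- cells and 3 UMIs (0.884 CPM) in 487 DKO cells.

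Cdkn2c was highest in G2M-rich cells and then fell off step by step. Its levels were 379 CPM in G2M-rich and 287 CPM in S-rich dividing cells of DKO-Skp2+/-, and 321 and 223 CPM in those of DKO. Quiet cells with S phase UMIs held 160 CPM in DKO-Skp2+/- and 124 CPM in DKO, while quiet cells without them held 18.5 and 20.9 CPM. The ratio between those kinds of quiet cell was 8.62 (6.90 to 10.9) in DKO-Skp2+/- and 5.92 (4.64 to 7.66) in DKO.

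Cdkn2d was highest in G2M-rich cells. It stood at 288 CPM in G2M-rich and 113 CPM in S-rich dividing cells of DKO-Skp2+/-, a ratio of 2.54 (2.26 to 2.87), and at 230 and 109 CPM in those of DKO, a ratio of 2.12 (1.86 to 2.42). The make-up of these cells differed, since Müller glia-like cells were 3.64% of G2M-rich and 16.4% of S-rich dividing cells in DKO-Skp2+/-, and 3.53% and 21.1% in DKO, and dividing Müller glia-like cells had Cdkn2d at 109.7 CPM in DKO-Skp2+/- and 122 CPM in DKO. The part of that make-up in the ratio was not tested. Quiet cells with and without S phase UMIs had close levels, at 55.1 and 60.4 CPM in DKO-Skp2+/- and 68.0 and 59.6 CPM in DKO. The ratios of 0.912 (0.783 to 1.06) and 1.14 (0.964 to 1.36) had intervals that held 1. Cell type changes along with these states: neuron-like classes made up 80.0% of quiet DKO-Skp2+/- cells without S phase UMIs and 19.8% of those with them, and 77.8% and 36.7% in DKO. The part of cell type in the difference between the kinds of quiet cell was not tested.

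**Figure D2:**
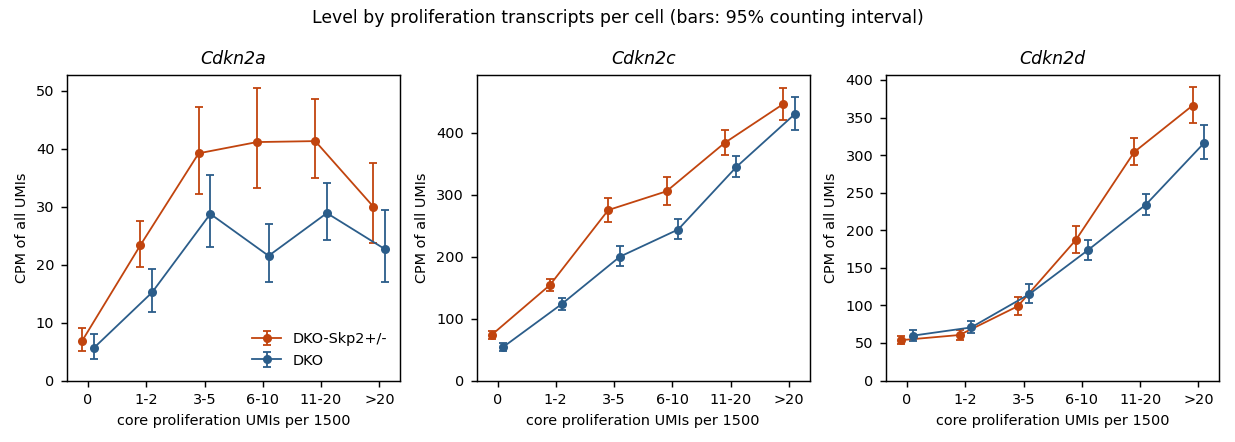
CPM of Cdkn2a, Cdkn2c and Cdkn2d (y axis) against the number of core proliferation UMIs per 1500 (x axis, 6 bins), with lines joining the bins of a library and bars for 95% Poisson intervals. Cdkn2c and Cdkn2d climb to the last bin. Cdkn2a rises up to the bin of 3 to 5 UMIs, shows no steady climb after it and is lower in the last bin than in the bin before.

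Cdkn2c climbed over all 6 bins of core proliferation UMIs, with 73.7, 154, 275, 306, 384 and 446 CPM in DKO-Skp2+/- and 54.3, 123, 200.0, 244, 345 and 430.0 CPM in DKO. Cdkn2d was nearly flat over the first pair of bins and then climbed, to 366 CPM in DKO-Skp2+/- and 316 CPM in DKO in the last. Cdkn2a had 6.85, 23.4, 39.2, 41.2, 41.3 and 29.98 CPM in DKO-Skp2+/-, and 5.61, 15.2, 28.8, 21.5, 28.9 and 22.7 CPM in DKO. Its highest bin by core UMIs was thus not its highest level in either library. Cdkn2b had its highest level in that last bin in both libraries, 5.06 CPM (13 UMIs) in DKO-Skp2+/- and 5.35 CPM (13 UMIs) in DKO.

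**Figure D3:**
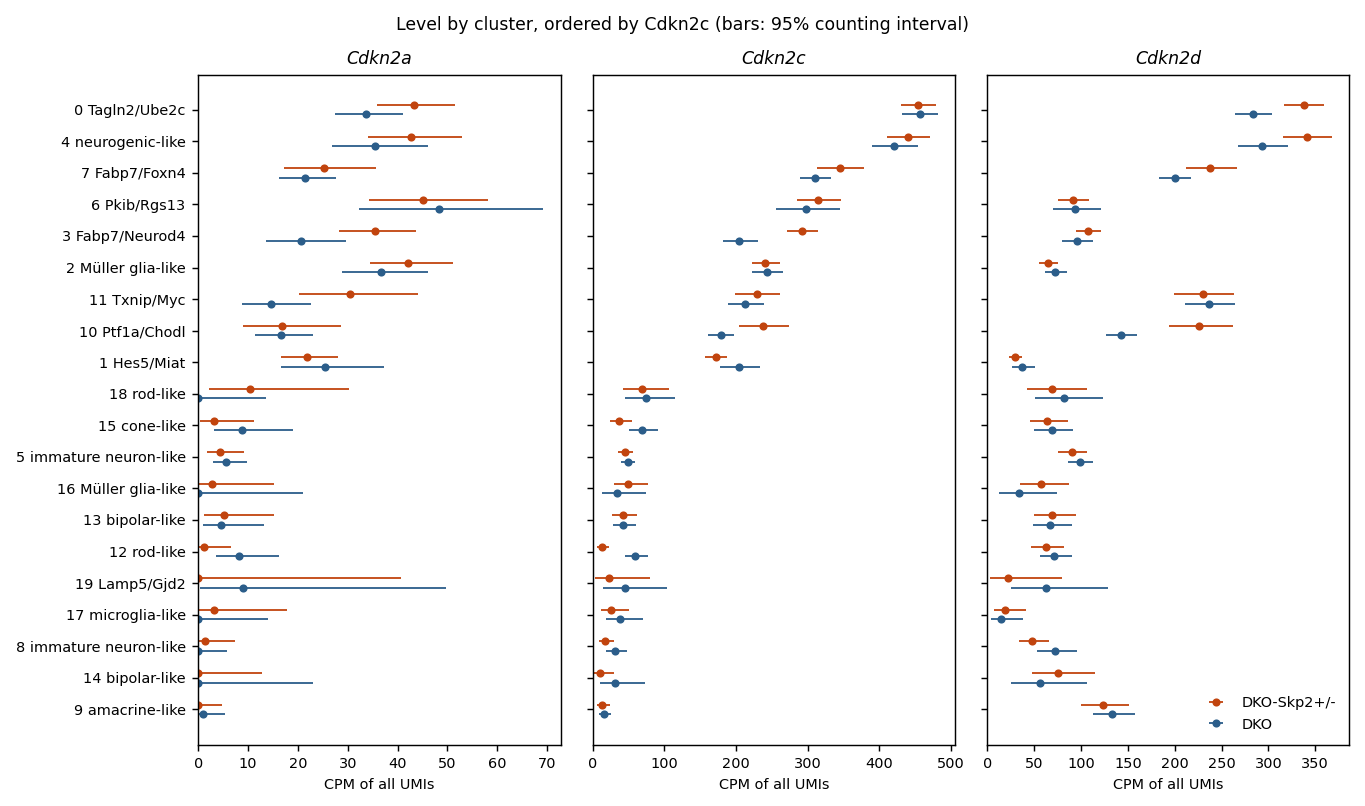
CPM of Cdkn2a, Cdkn2c and Cdkn2d (x axis) in the clusters with at least 20 cells in each library (y axis, ordered by Cdkn2c, labelled by cluster number and by name or, where unnamed, leading genes), with bars for 95% Poisson intervals. The amacrine-like cluster stands last for Cdkn2c and above the other neuron-like clusters for Cdkn2d.

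Clusters were built without cell cycle genes and without the 4 members, and 15 took a name from cell type markers while 10 stayed unnamed. The named ones held 45.3% of DKO-Skp2+/- and 49.7% of DKO cells, and the other clusters are called by their leading genes. Microglia-like cells, 41 DKO-Skp2+/- and 29 DKO cells, served as a comparison level from outside the retinal lineage. Over them Cdkn2a stood at 3.19 CPM (1 UMI) and 0 UMIs, Cdkn2c at 25.5 and 37.8 CPM, and Cdkn2d at 19.1 and 15.1 CPM. Of these cells 0% and 6.90% were dividing. Free RNA and expression by the microglia themselves could not be told apart, so a ratio to this level is not a ratio to background.

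Cdkn2d was also counted at high level outside the dividing cells, in amacrine-like cells, inhibitory interneurons of the inner retina. Only 0.709% of these 141 DKO-Skp2+/- cells and 1.18% of these 169 DKO cells were dividing. They nonetheless held 96 Cdkn2d UMIs (124 CPM, 100.1 to 151) in DKO-Skp2+/- and 139 UMIs (134 CPM, 112 to 158) in DKO. Those levels were 6.46 times (2.86 to 18.0) and 8.85 times (3.38 to 32.9) the level in microglia-like cells.

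Set against all other quiet cells, quiet amacrine-like cells had 2.36 times the Cdkn2d level in DKO-Skp2+/- (1.88 to 2.93) and 2.36 times in DKO (1.94 to 2.86). The other members were low there. Cdkn2c gave 10 UMIs (12.9 CPM) and 16 UMIs (15.4 CPM), with ratios to the microglia-like level of 0.504 (0.179 to 1.47) and 0.407 (0.174 to 1.004), whose intervals held 1. Cdkn2a gave 0 UMIs in DKO-Skp2+/- amacrine-like cells, where 3 counts would be 3.86 CPM, and 1 UMI in DKO ones, while Cdkn2b gave 0 UMIs in both. The small cluster led by Lhx1os and Sncg, 16 DKO-Skp2+/- and 12 DKO cells, also had Cdkn2d at 139 and 150 CPM and no Cdkn2a UMI. An unnamed cluster led by Lamp5 and Gjd2 lay nearest to amacrine cells by markers. Its 23 DKO-Skp2+/- and 24 DKO cells were 4.35% and 0% dividing. Cdkn2d was lower there, at 22.0 CPM (2 UMIs) and 62.4 CPM (7 UMIs), so the high level was not seen in every amacrine-related cluster.

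The highest Cdkn2d among named classes was in neurogenic-like cells, which express Olig2 and Foxn4 and were nearly all dividing, at 341 CPM in DKO-Skp2+/- and 293 CPM in DKO. Amacrine-like cells came next. Immature neuron-like (76.3 and 92.4 CPM), bipolar-like (71.6 and 65.1 CPM), Müller glia-like (63.7 and 69.4 CPM), cone-like (63.5 and 68.6 CPM) and rod-like cells (62.5 and 74.5 CPM) followed with intervals that overlapped in DKO-Skp2+/-. Astrocyte-like, microglia-like and endothelial-like cells were last, each with 6 UMIs or fewer. Between the neuron-like classes and microglia-like cells the ratio had an interval above 1 for immature neuron-like, bipolar-like and rod-like cells in both libraries, the lowest being 3.26 (1.43 to 9.18) in rod-like DKO-Skp2+/- cells.

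For Cdkn2c, neurogenic-like cells had 440.1 CPM in DKO-Skp2+/- and 421 CPM in DKO, and Müller glia-like cells 216 and 227 CPM. The Müller glia-like class joined unlike clusters. The larger, led by Cox4i2 and Npy, was 25.8% and 31.6% dividing and had 241 and 244 CPM. The smaller, led by Prss56 and Col9a1 (72 and 35 cells), was 6.94% and 0% dividing. It had 49.1 CPM (18 UMIs) and 34.0 CPM (6 UMIs). Every other named class lay between 12.9 and 37.2 CPM in DKO-Skp2+/- and between 13.0 and 68.6 CPM in DKO. For immature neuron-like, bipolar-like and rod-like cells, all 6 ratios to the microglia-like level had intervals that held 1. The unnamed cluster led by Tagln2 and Ube2c, at 454 and 456 CPM, was close to the neurogenic-like level. After thinning, 49.9% of neurogenic-like DKO-Skp2+/- cells and 45.5% of DKO ones held a Cdkn2c UMI, against 7.32% and 3.45% of microglia-like cells. Without thinning those shares were 83.5% and 81.3% in neurogenic-like cells (median 4218 and 4445 UMIs), and 19.5% and 27.6% in microglia-like cells (median 7519 and 9247 UMIs).

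Cdkn2a followed the same order at the top. It stood at 42.8 CPM in neurogenic-like DKO-Skp2+/- cells and 35.5 CPM in DKO ones, and at 37.1 and 33.8 CPM in Müller glia-like cells, with intervals that overlapped. Of the Müller glia-like clusters, the larger had 42.2 and 36.7 CPM, and the smaller only 1 UMI in DKO-Skp2+/- and 0 UMIs in DKO. The cluster led by Pkib and Rgs13 had 45.1 and 48.2 CPM. In immature neuron-like, bipolar-like, rod-like, cone-like and amacrine-like cells it ranged between 0 and 3.46 CPM in DKO-Skp2+/- and between 0.961 and 8.76 CPM in DKO, with at most 12 UMIs in a class. Thinned shares with a Cdkn2a UMI were 5.77% of dividing DKO-Skp2+/- cells and 4.54% of dividing DKO cells, 1.64% and 1.94% of quiet cells, and 0 of 41 and 0 of 29 microglia-like cells. Unthinned, dividing cells gave 17.3% and 16.0%, and quiet cells 5.94% and 5.69%.

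Cdkn2b was higher in the neurogenic-like class than in the rest of the cells. Of its UMIs, 13 of 38 in DKO-Skp2+/- and 15 of 61 in DKO fell in the 407 and 321 cells of that class, at 6.70 and 9.35 CPM. All other cells had 1.13 CPM in DKO-Skp2+/- and 2.11 CPM in DKO, so the ratio of the class to the rest was 5.91 (2.78 to 12.01) and 4.44 (2.30 to 8.10). No cell held more than 2 of its UMIs, and 4940 DKO-Skp2+/- and 3456 DKO cells held none. Astrocyte-like cells, 18 in each library, had a higher level from 2 UMIs (9.98 CPM) in DKO-Skp2+/- and 4 UMIs (19.3 CPM) in DKO. In the remaining named classes it gave at most 6 UMIs each.

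Within Müller glia-like and immature neuron-like cells, dividing cells had the higher level. In Müller glia-like cells, where 219 and 200 Cdkn2c UMIs came from dividing cells, Cdkn2c was 1.63 times as high in dividing as in quiet DKO-Skp2+/- cells (1.38 to 1.93) and 1.47 times in DKO cells (1.22 to 1.76). The same ratio for Cdkn2d was 2.28 (1.68 to 3.08) and 2.69 (1.93 to 3.76), and for Cdkn2a 1.59 (1.04 to 2.41) and 1.75 (1.07 to 2.84). In the larger Müller glia-like cluster alone, Cdkn2c gave 1.51 (1.27 to 1.79) and 1.32 (1.10 to 1.59). Cdkn2d gave 2.17 and 2.61 there, with intervals above 1. Cdkn2a gave 1.40 (0.906 to 2.12) and 1.55 (0.949 to 2.51), intervals that held 1. Among immature neuron-like cells, Cdkn2d reached 282 CPM in dividing and 46.2 CPM in quiet DKO-Skp2+/- cells, a ratio of 6.11 (4.50 to 8.29). In DKO it was 183 and 59.7 CPM, a ratio of 3.06 (2.38 to 3.94). Cdkn2c in this class had ratios of 4.65 (2.92 to 7.33) and 2.95 (2.04 to 4.27). Cdkn2a had only 4 and 4 UMIs there in DKO-Skp2+/- and 6 and 6 in DKO. In the cluster led by Hes5 and Miat, ratios for Cdkn2c and Cdkn2d had intervals that held 1 in both libraries. Cdkn2d gave 1.17 in DKO-Skp2+/- and 1.09 in DKO in the cluster led by Pkib and Rgs13, with intervals that held 1. For the cluster led by Fabp7 and Neurod4, Cdkn2d gave 1.35 (1.04 to 1.76) and 1.01 (0.704 to 1.46). Clusters led by Ptf1a and Chodl and by Fabp7 and Foxn4 had Cdkn2d intervals above 1 in both libraries. Cdkn2a in the Ptf1a and Chodl cluster gave 0.385 and 0.711, with 6 and 8 UMIs in quiet cells and intervals that held 1.

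Members were also counted in the same cells. Among thinned dividing DKO-Skp2+/- cells, 52.5% of those with Cdkn2a and 41.1% of those without it held Cdkn2c, against 39.1% and 37.2% in DKO. For Cdkn2d the shares were 26.2% and 27.9% in DKO-Skp2+/- and 25.3% and 25.4% in DKO. These are descriptions of sparse counts, resting on 122 DKO-Skp2+/- and 87 DKO cells with a Cdkn2a UMI.

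Across 37 sums of a cluster in a library, with at least 30 cells each, the gene among 11053 whose level varied most like Cdkn2a was Cdkn2c (Pearson r = 0.938), followed by Cebpg, Asf1b, Arpp19 and Pdlim1. For Cdkn2c the closest were Lockd (r = 0.961), H2afz, Ccdc34, Hmgb2 and Spc25. For Cdkn2d they were Spag5 (r = 0.887), Ubald2, Pknox1, Bub3 and Ect2. Cdkn2d was less like the other members, with r = 0.489 to Cdkn2a and 0.585 to Cdkn2c. The sums come from 2 libraries and share their depths, so r describes these sums only. Cdkn2b had too few UMIs for this measure.

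Between the libraries, Cdkn2a was higher in DKO-Skp2+/- both in dividing and in quiet cells. It was 1.47 times as high in dividing DKO-Skp2+/- cells as in dividing DKO cells (429 and 357 UMIs, interval 1.28 to 1.70), and 1.41 times in quiet cells (185 and 99 UMIs, 1.10 to 1.82). Over all cells it stood at 25.6 CPM in DKO-Skp2+/- and 19.4 CPM in DKO, a ratio of 1.32 (1.16 to 1.49). Of 11999 genes with enough UMIs in dividing cells, 3.41% had a higher ratio than Cdkn2a, and the median gene had 1.02. With the share of each cluster held fixed, an alternative chosen after the data were seen, the ratio in dividing cells was 1.27. Thinned to 1500 UMIs, quiet cells gave 0.846, from 47 DKO-Skp2+/- and 31 DKO cells with a UMI. The median depth of quiet cells was 3549.5 UMIs in DKO-Skp2+/- and 4504 in DKO.

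**Figure D4:**
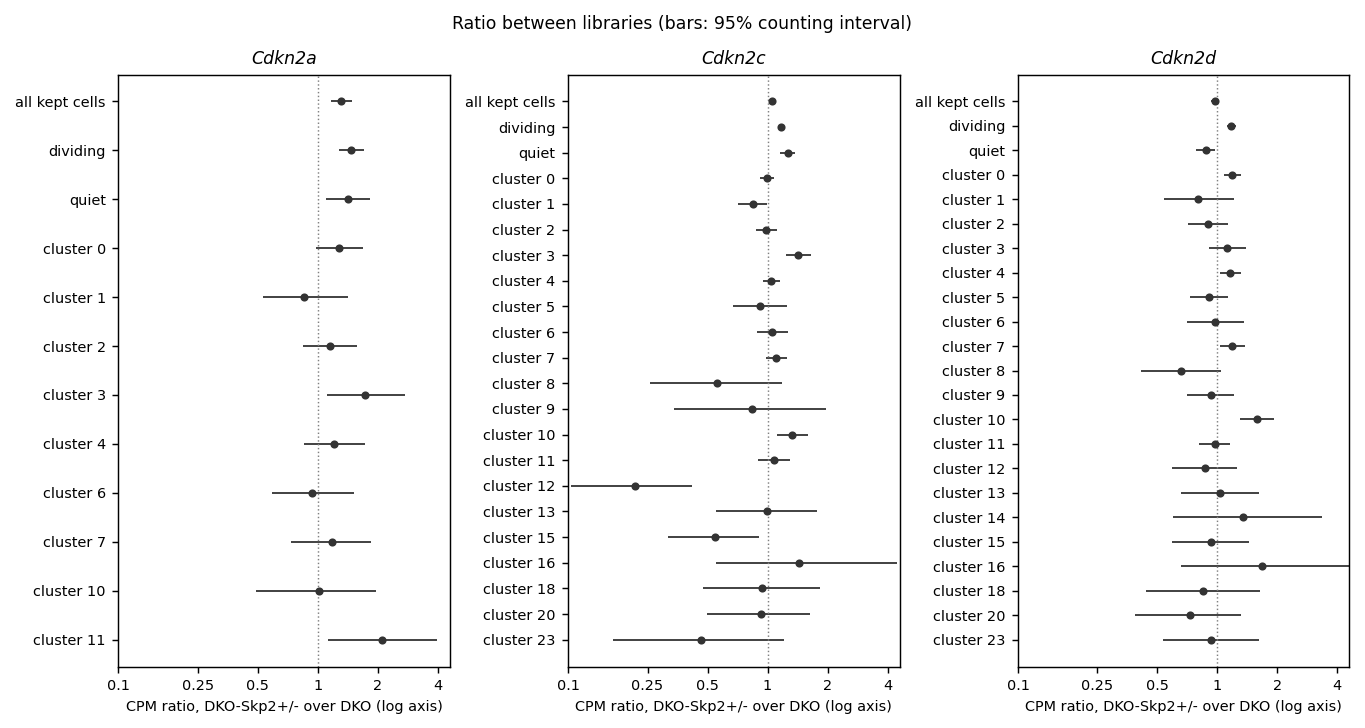
Ratio of CPM in DKO-Skp2+/- over DKO (x axis, log scale) for Cdkn2a, Cdkn2c and Cdkn2d in all, dividing and quiet cells and in each cluster with at least 20 UMIs (y axis), with bars for 95% exact intervals, cut at the edge of the panel where wider. The interval excludes 1 in 2 of 9 clusters for Cdkn2a, 5 of 19 for Cdkn2c and 4 of 20 for Cdkn2d, and Cdkn2c in cluster 12, rod-like cells, lies lowest at 0.217.

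Of 9 clusters with at least 20 Cdkn2a UMIs, 7 had a ratio above 1 and 2 below it. The interval lay above 1 in the cluster led by Fabp7 and Neurod4, at 35.4 CPM in DKO-Skp2+/- and 20.5 CPM in DKO (ratio 1.73, 1.11 to 2.75). It also did in the cluster led by Txnip and Myc, at 30.5 and 14.5 CPM (ratio 2.10, 1.13 to 3.98). In Müller glia-like cells (1.10, 0.809 to 1.5) and in neurogenic-like cells (1.20, 0.849 to 1.72) a difference was not detectable at this depth.

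Cdkn2c and Cdkn2d differed less. Over all cells the ratio was 1.05 (1.01 to 1.09) for Cdkn2c and 0.970 (0.925 to 1.02) for Cdkn2d. In dividing cells both ratios were 1.17, with intervals of 1.12 to 1.23 for Cdkn2c and 1.11 to 1.24 for Cdkn2d. Those in dividing cells lay between 1.08 and 1.17 for Cdkn2c and between 1.05 and 1.24 for Cdkn2d in all alternatives run. In dividing cells 23 of 26 core proliferation and 32 of 38 G2M genes were also above 0 in log2 difference between the libraries. Their medians were 0.136 and 0.140, against 0.022 over all genes, of which 55.4% were above 0. In the last bin of core proliferation UMIs, Cdkn2c gave 1.04 (0.953 to 1.13) and Cdkn2d 1.16 (1.05 to 1.27). The part of proliferation genes in the members' library ratios was not tested. In quiet cells Cdkn2c was higher in DKO-Skp2+/- (1.26, 1.16 to 1.38) and Cdkn2d lower (0.875, 0.786 to 0.976). With amacrine-like cells left out, a choice made after the data were seen, Cdkn2d in quiet cells was at 0.926 (0.822 to 1.04), an interval that held 1. With cluster shares held fixed, Cdkn2c in quiet cells was at 0.991, and among quiet cells without S phase UMIs Cdkn2c was at 0.886 and Cdkn2d at 1.01. In DKO-Skp2+/- 70.0% of quiet cells held 3 or more S phase UMIs, against 69.5% in DKO. Even so, in quiet cells 34 of 40 S phase genes were above 0 in log2 difference between DKO-Skp2+/- and DKO. Their median was 0.17 against 0.013 over all genes, of which 52.9% were above 0. E2F targets gave 10 of 12 above 0 in quiet cells, with a median of 0.20. The part of these differences in the quiet ratios of the members was not tested.

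Single clusters went both ways for Cdkn2c. Its ratio was 1.43 (1.24 to 1.65) in the cluster led by Fabp7 and Neurod4 and 1.33 (1.11 to 1.59) in the cluster led by Ptf1a and Chodl, where dividing cells gave 1.49 (1.23 to 1.81). It was 0.841 (0.714 to 0.995) in the cluster led by Hes5 and Miat and 0.542 (0.317 to 0.904) in cone-like cells. The cone-like ratio was 1.16 with cell cycle genes kept in the clustering. Dividing cells made up 7.81% of the cone-like cluster in DKO-Skp2+/- and 22.7% in DKO, with median depths of 6878.5 and 11120 UMIs, and their part in the ratio was not tested. In the larger rod-like cluster, 11 UMIs in DKO-Skp2+/- (12.9 CPM) stood against 58 in DKO (59.4 CPM), a ratio of 0.217 (0.103 to 0.418). Dividing cells made up 0.685% of that cluster in DKO-Skp2+/- and 14.6% in DKO, and its median depth was 4226.5 and 7885 UMIs. Over all 3 rod-like clusters together the ratio was 0.521 (0.348 to 0.769). Among the quiet cells of those 3 clusters Cdkn2c was at 31.0 CPM in DKO-Skp2+/- and 41.2 CPM in DKO, a ratio of 0.752 (0.465 to 1.21) whose interval held 1. The part of depth and of the dividing cells in the rod-like difference was not tested.

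Of 20 clusters with at least 20 Cdkn2d UMIs, 8 had a ratio above 1 and 12 below it. Among the 20, 4 had an interval above 1 and 0 had one below it. The highest of those 4 ratios was in the cluster led by Ptf1a and Chodl, of which Ptf1a is a factor of amacrine and horizontal precursors. Cdkn2d stood there at 226 CPM in DKO-Skp2+/- and 143 CPM in DKO, a ratio of 1.58 (1.31 to 1.91). Dividing cells of the cluster had 285 and 152 CPM, a ratio of 1.87 (1.53 to 2.29), while its quiet cells had 46.6 and 100.2 CPM, a ratio of 0.465 (0.198 to 0.982) from 9 and 37 UMIs. The cluster held 82 DKO-Skp2+/- and 167 DKO cells. In amacrine-like, immature neuron-like and Müller glia-like cells the interval of the ratio for Cdkn2d held 1. Dividing immature neuron-like cells taken alone had a ratio of 1.54 (1.16 to 2.04), and quiet ones 0.773 (0.584 to 1.02).

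Cdkn2b was lower in DKO-Skp2+/-, with 1.58 CPM against 2.60 CPM in DKO over all cells (ratio 0.608, 0.395 to 0.927). Quiet cells gave 10 UMIs in DKO-Skp2+/- and 24 in DKO (0.315, 0.134 to 0.684), and dividing cells 28 and 37 UMIs (0.929, 0.547 to 1.56). Thinned to 1500 UMIs per cell, the ratio was 0.370 over all cells and 0.349 in dividing cells. No member was over 1.5-fold higher over all cells, where 3.19% of 13479 genes were, and Cdkn2b alone was over 1.5-fold lower, where 2.02% were. In dividing cells no member passed that fold in either direction, against 3.02% of genes higher and 3.71% lower. In quiet cells none of the 3 members with enough UMIs did, against 3.12% higher and 3.06% lower.

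The kinases that INK4 proteins inhibit and the D-type cyclins that activate them were all measured. In dividing cells all 5 were above 0 in log2 difference between DKO-Skp2+/- and DKO, as were 55.4% of all genes. Their median was 0.25 against 0.022 over all genes. Cdk4 stood at 659 CPM in DKO-Skp2+/- and 625 CPM in DKO, Cdk6 at 24.999 and 19.1 CPM, Ccnd1 at 39.9 and 37.4 CPM, Ccnd2 at 3.65 and 2.17 CPM and Ccnd3 at 42.3 and 34.9 CPM. The interval of the library ratio for Ccnd1 (0.937 to 1.21) held 1. The 3 D-type cyclins were lower in dividing than in quiet cells, with intervals under 1 in both libraries. Ccnd1 gave 0.783 in DKO-Skp2+/- and 0.852 in DKO, Ccnd2 0.239 and 0.157, and Ccnd3 0.747 and 0.774. Cdk6 gave 0.894 (0.762 to 1.05), an interval that held 1, in DKO-Skp2+/- and 0.757 (0.634 to 0.905) in DKO. Cdk4 was higher in dividing cells, at 1.12 times in DKO-Skp2+/- and 1.21 times in DKO.

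Of the Cip/Kip inhibitors, which act on cyclin E and A kinases, Cdkn1a was 3.46 times as high in dividing as in quiet DKO-Skp2+/- cells and 3.32 times in DKO cells. Cdkn1b gave 1.995 and 2.03 and Cdkn1c 0.983 and 1.10. Between libraries in dividing cells they were at 1.07, 1.07 and 1.15, and the interval for Cdkn1b (0.995 to 1.16) held 1. Of the genes listed for Arf and p53, which included Trp53, Mdm4 and Npm1, 9 of 12 were above 0 in dividing minus quiet DKO-Skp2+/- cells. Their median was 0.34 against -0.064 over all genes, of which 43.2% were above 0. In DKO 8 of 11 were above 0, with a median of 0.051 against -0.061 over all genes, of which 43.9% were. Mdm2, the target of p19Arf and of p53, was 1.98 and 2.196 times as high in dividing cells, while Trp53 was at 1.04 in both. Between libraries in dividing cells, 9 of 11 were above 0, against 55.4% of all genes, with a median of 0.062. Npm1, which holds Arf in the nucleolus, was at 1.14. Phlda3 was at 1.17, Mdm4 at 0.955 and Gadd45a at 0.996, all with intervals that held 1.

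Genes known to repress the locus, mostly Polycomb subunits, were split between the libraries in dividing cells, with 10 of 18 above 0 and a median of 0.049, where 55.4% of all genes were above 0 with a median of 0.022. Bmi1 (0.765) and Phc1 (0.756) were lowest in DKO-Skp2+/- relative to DKO, and Id1 was at 1.19. In dividing minus quiet cells 14 of 18 were above 0 in DKO-Skp2+/- and 15 of 18 in DKO, as were 43.2% and 43.9% of all genes. Ezh2, the methyltransferase of the complex, was 2.29 and 2.43 times as high in dividing cells. Genes reported to activate members of the locus gave 10 of 20 above 0 between the libraries in dividing cells, against 55.4% of all genes, with a median of 0.0067. Jun (1.40) and Egr1 (1.23) were highest, and Mycn (0.794) and Smad4 (0.831) lowest.

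Among Rb and E2F genes, 5 of 12 were above 0 between libraries in dividing cells, against 55.4% of all genes, with a median of -0.0018. E2f5 was at 1.34, and E2f2 (0.935) and E2f6 (0.944) were lowest by log2 difference, with intervals of the ratio that held 1. Rbl2, the pocket protein p130 that both genotypes keep, was at 1.45 (11.03 CPM in DKO-Skp2+/- and 7.61 CPM in DKO). Rb1 was at 0.943 and Rbl1, the p107 gene, at 1.05, both with intervals that held 1. The 3′ tags of these genes need not lie in the deleted parts, so they do not check the labels. E2F targets gave 9 of 12 above 0, against the same 55.4%, with a median of 0.067. Ccne1 was at 1.33, Tk1 at 1.24, Mcm5 at 0.866 and Mybl2 at 0.970 (0.862 to 1.09), whose interval held 1. A list of genes from the chromosomal surroundings of the members also held Cdkn2aip and Cdkn2aipnl, neither of them a neighbour. It gave 3 of 9 above 0, against the same 55.4%. Faf1, next to Cdkn2c, was at 1.18 and Elavl4 at 0.811. Mtap was at 1.15 (0.974 to 1.35) and Slc44a2 at 0.816 (0.643 to 1.03), intervals that held 1. The closest neighbour of Cdkn2a, the noncoding Gm12606, had 0 UMIs in both libraries.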

How the data were processed

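Each library is 1 sample of peripheral retina, grouped by its genotype label. What the authors deposited are UMI counts, not normalized, for every gene in every barcode. Per the submitters' processing notes the authors used Cell Ranger 2.2.0 and the mm10 build, and their barcode filter is not given in the sources used here. Total counts were 25766024 UMIs in 5196 DKO-Skp2+/- barcodes and 24413761 UMIs in 3621 DKO barcodes, with minima of 2387 and 3420 UMIs per barcode.

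A floor of 500 genes and a ceiling of 20% mitochondrial UMIs left out 2 DKO-Skp2+/- barcodes and 1 DKO barcode. A doublet score after Scrublet was computed in each library, and its top 0.8% per 1000 barcodes (216 and 105) were left out, since the automatic threshold marked only 2 and 1. Cells were clustered on 30 principal components of 2000 variable genes, without cell cycle genes and the 4 members (scanpy 1.11.5, leidenalg 0.10.2, resolution 1.0). A cluster was called X-like where its markers averaged a log2 fold of at least 1, with at least 3 markers above 2-fold and at least 1 among the 10 leading genes, and no other type had as many there. These limits were set after the data were seen.

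UMIs were summed over the cells of a population. Levels carry exact Poisson intervals, ratios exact conditional binomial intervals and shares Clopper-Pearson intervals, all at 95%, and they treat UMIs of 1 cell as independent. Log2 differences are of CPM plus a pseudocount of 5, for genes with at least 50 UMIs, and understate differences of low genes. The ratio and interval steps were run on simulated data drawn as independent Poisson counts from a pooled profile. That check covers the arithmetic and not variation between cells or animals. Pathway genes named are all D-type cyclin, kinase and Cip/Kip genes, the pocket protein genes, Mdm2 and Trp53, and, from each other list, the top 2 in each direction by log2 difference between the libraries in dividing cells. The 5 genes most like a member were taken by Pearson correlation over sums with at least 30 cells, among genes with at least 200 UMIs. Some genes this rule names are not reported here. Ezh2 and Gm12606 were named after their values were seen. The members and lists were chosen with earlier results of these data known. Other software was matplotlib 3.10.9, igraph 0.11.9, pandas 2.3.3, scipy 1.17.1 and numpy 2.4.6 under Python 3.11.15. Annotation was GENCODE release M21 on GRCm38, the assembly that mm10 names, and 27722 of the 27998 gene identifiers matched it.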

Additional observations from a re-analysis of the deposited data

Results flagged for a closer look

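The library ratio of Cdkn2c, DKO-Skp2+/- over DKO, pointed in opposite directions in different clusters, with counting intervals that left 1 on both sides. It was above 1 in clusters 3 (1.43, led by Fabp7 and Neurod4) and 10 (1.33, led by Ptf1a and Chodl). It was below 1 in clusters 1 (0.841, led by Hes5 and Miat), 12 (0.217, rod-like) and 15 (0.542, cone-like). The cone-like ratio was 1.16 with cell cycle genes kept in the clustering, and quiet cells of all 3 rod-like clusters gave 0.752 (0.465 to 1.21). With 1 library per genotype the difference between these ratios was not tested.

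The library ratio of Cdkn2d was 1.17 in dividing and 0.875 in quiet cells, so that the ratio in dividing cells was 1.34 times that in quiet cells. With amacrine-like cells left out, the ratio in quiet cells was 0.926 (0.822 to 1.04). This difference was not tested either.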

How the results depend on the processing

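Each member's 3 library ratios and 2 dividing over quiet ratios were recomputed under the alternatives. All 20 stayed within their counting interval with all deposited barcodes, with doublets kept and with median of ratios scaling. Thinned to 1500 UMIs per cell, the library ratios turned round for Cdkn2a in quiet cells (0.846) and Cdkn2c over all cells (0.951). Others moved: over all cells Cdkn2a to 1.06, Cdkn2b to 0.370 and Cdkn2d to 0.894, in dividing cells Cdkn2b to 0.349, Cdkn2c to 1.09 and Cdkn2d to 1.08, and in quiet cells Cdkn2c to 1.05. The thinned dividing over quiet ratio was 3.52 for Cdkn2a and 1.13 for Cdkn2b in DKO-Skp2+/-, and 3.10 for Cdkn2c in DKO. As a mean over cells, the library ratio of Cdkn2c over all cells turned round (0.974), Cdkn2d over all cells moved to 0.873, in dividing cells Cdkn2c moved to 1.08 and Cdkn2d to 1.05, and the dividing over quiet ratio of Cdkn2d in DKO moved to 3.52. Among cells with at least 3420 UMIs, Cdkn2c in quiet cells was at 1.12, Cdkn2d over all cells at 1.08, and Cdkn2c dividing over quiet in DKO-Skp2+/- at 3.62. With dividing set at 2 or more UMIs, dividing over quiet was 3.68 for Cdkn2a and 3.69 for Cdkn2c in DKO-Skp2+/- and 3.96 for Cdkn2c in DKO. At 5 or more UMIs, Cdkn2d gave 4.90 in DKO-Skp2+/- and 3.49 in DKO.

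The next 3 settings were chosen after the data were seen. With cluster shares held fixed, Cdkn2c in quiet cells turned round (0.991), in dividing cells Cdkn2a was at 1.27 and Cdkn2c at 1.08, and Cdkn2d over all cells was at 1.10. With quiet cells also under 3 S phase UMIs, the library ratios of Cdkn2c (0.886) and Cdkn2d (1.01) in quiet cells turned round. Dividing over quiet was then 24.1 for Cdkn2a and 19.1 for Cdkn2c in DKO-Skp2+/-, and 29.3 for Cdkn2a, 14.5 for Cdkn2c and 3.48 for Cdkn2d in DKO. With amacrine-like cells left out of the quiet cells, dividing over quiet in DKO was 3.13 for Cdkn2c and 3.65 for Cdkn2d. The library ratio of Cdkn2a in dividing cells lay between 1.27 and 1.54 in all alternatives run. With cell cycle genes kept in clustering, the ratio of Cdkn2c in cone-like cells was 1.16, above 1. Of 155 further values for classes and lists, 145 stayed within their limits and 9 moved. The causes of these shifts were not tested.

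No paired analysis was possible because each genotype has 1 library. The depth limits Cdkn2b most, with 38 UMIs in DKO-Skp2+/- and 61 in DKO, and Cdkn2a in single classes.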
